A study of Mus musculus with 30 samples.

Results

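The response of each gene to doxycycline (DOX) was compared between 2 mouse embryonic stem cell lines, iETV2 and iETV2-KDM4A (H188A), in 12 RNA-seq libraries out of the 30 samples of the series. The libraries were chosen by their labels alone. They form 4 groups of 3: iETV2 without DOX, iETV2 with DOX, iETV2-KDM4A (H188A) without DOX and iETV2-KDM4A (H188A) with DOX. DOX serves to express ETV2 in both lines, and the series' design text names KDM4A as a second product in the second line, here called the H188A line. Both lines carry the ETV2 system, with and without DOX. The labels give neither the dose nor the length of the DOX treatment, nor whether a line is 1 clone. The value described for each gene is the line by DOX interaction, the log2 change with DOX in the H188A line minus the log2 change with DOX in iETV2. A negative interaction means a smaller rise, or a larger fall, in the H188A line. Since the same interaction arises when a gene does not rise or when it was already high without DOX, all 4 group levels are given for many genes. Where an interaction is given without levels or a class, it does not tell these cases apart.

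ETV2, also called ER71, is an ETS-family transcription factor that acts early and briefly in the mesoderm that gives rise to blood and endothelial cells. ETS factors bind DNA around a GGAA core. KDM4A is a demethylase that removes methyl groups from lysine 9 and lysine 36 of histone H3, and trimethylated lysine 9 is a mark of repressed chromatin. H188A replaces a histidine that holds the iron in the active site of KDM4A, a change used to make the enzyme catalytically inactive.

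Levels are CPM, each count scaled to the total of its library, with the 3 libraries of a group always given in the same order, and the libraries held 40334911 to 68970038 counts. The labels do not say that replicates came from separate cultures, so p-values measure the spread between these libraries, which may be technical. iETV2 belongs to experiment 1 and the H188A line to experiment 2, so line and experiment cannot be told apart. All 12 libraries are labelled embryonic stem cell, and the pluripotency genes Pou5f1 (256 to 583 CPM) and Nanog (110.1 to 155 CPM) were present in every library. T, the brachyury gene of the primitive streak, was at 862 ± 27.9 CPM (mean ± SD, n = 3) in iETV2 without DOX and at 0.357 ± 0.195 CPM in the H188A line without DOX, so the untreated lines did not start from the same expression state. The first H188A library without DOX stood apart at the low end of expression: chemosensory receptor genes, which these cells are not known to use, summed to 598 CPM there and to 34.8 to 195 CPM in the other 11 libraries. Without that library 3225 genes had an interaction, against 3679 with it, and its part in the results on genes below 1 CPM was not tested except where a value without it is given.

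The promoters of 3 genes are shown because each stands for 1 of the main patterns described below: Tal1 for a partial rise, Tek for a level already high without DOX and Hba-x for a gene high only in treated iETV2. Each sequence runs from 250 bases before to 50 bases after an annotated start in RefSeq (GRCm38.p6), 5′ to 3′ on the strand of the gene, and all 3 genes lie on the plus strand. For Tek the start used lies within the gene span given below, not at its first base. Capitals mark the ETS core GGAA, or TTCC where the core is on the opposite strand.
Tal1, first of 2 listed starts, chr4:115056176-115056475: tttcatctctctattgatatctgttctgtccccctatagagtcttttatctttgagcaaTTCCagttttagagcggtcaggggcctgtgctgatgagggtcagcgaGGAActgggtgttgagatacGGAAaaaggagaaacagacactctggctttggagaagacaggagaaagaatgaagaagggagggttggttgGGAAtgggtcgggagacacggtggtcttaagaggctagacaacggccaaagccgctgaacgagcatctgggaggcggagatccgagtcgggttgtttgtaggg
Tek, chr4:94739039-94739338: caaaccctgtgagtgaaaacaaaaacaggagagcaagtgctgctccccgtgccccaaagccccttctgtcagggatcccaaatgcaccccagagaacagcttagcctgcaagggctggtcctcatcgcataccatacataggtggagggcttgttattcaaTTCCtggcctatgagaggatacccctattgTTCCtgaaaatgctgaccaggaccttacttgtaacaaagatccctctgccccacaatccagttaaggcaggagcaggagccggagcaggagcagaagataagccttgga
Hba-x, chr11:32276350-32276649: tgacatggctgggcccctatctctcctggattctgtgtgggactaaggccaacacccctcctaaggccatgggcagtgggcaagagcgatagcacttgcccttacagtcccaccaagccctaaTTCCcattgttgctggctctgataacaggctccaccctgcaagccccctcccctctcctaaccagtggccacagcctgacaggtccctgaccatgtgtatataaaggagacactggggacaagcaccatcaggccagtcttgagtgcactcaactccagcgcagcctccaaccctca
The Tal1 window holds 4 core matches, the Tek window 2 and the Hba-x window 1. Over all 32851 RefSeq promoters of this length, 96.0% hold at least 1 match on either strand and the median is 3 matches, so the core is common in promoters generally. The longer ETS motif CNGGAAGT, searched on both strands and always containing the core, was in none of the windows shown, and was in 9.53% of all promoters. These matches describe the sequence only, and no binding was measured here.

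Etv2 itself (ENSMUSG00000006311, chr7:30633616-30636509) was at 2.73, 3.02 and 3.05 CPM in iETV2 without DOX and 19.7, 18.1 and 18.2 CPM in iETV2 with DOX. For the H188A line the levels were 0.669, 0.139 and 0.319 CPM without DOX and 11.5, 18.6 and 15.5 CPM with DOX. All DOX libraries lay above all untreated ones, the DOX libraries of the lines overlapped, and the untreated H188A libraries were the lowest. The rise was 2.68 on the log2 scale in iETV2 and 5.49 in the H188A line, an interaction of 2.81 ± 0.36 (SE, adjusted p = 5.26e-05). Without DOX the H188A line was lower by a log2 difference of -3.01 ± 0.30 (SE, adjusted p = 5.74e-07), and with DOX the difference was -0.20 ± 0.19 (SE, adjusted p = 0.437). The larger fold change in the H188A line thus went with a lower start and with DOX levels that did not pass the test for a difference. Counts do not separate the native gene from an introduced copy.

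Kdm4a (chr4:118136957-118180090) was at 83.8, 87.5 and 84.6 CPM in iETV2 without DOX and 90.4, 88.2 and 83.4 CPM in iETV2 with DOX. Its levels in the H188A line were 82.8, 87 and 80.6 CPM without DOX and 83.6, 88.6 and 88.5 CPM with DOX. The groups overlapped, and neither the DOX effect in the H188A line (0.11 ± 0.07 SE, adjusted p = 0.317) nor the interaction (0.06 ± 0.10 SE, adjusted p = 0.703) passed the test. The sources used here do not say from which species or coding sequence the KDM4A (H188A) construct was made, or whether its reads count towards Kdm4a, so these counts do not check the label of the line.

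The marker genes Tal1, Tek, Cdh5 and Hand1 all rose with DOX in iETV2 and all had a negative interaction, but their 4 levels differed in kind. Tal1 (ENSMUSG00000028717, chr4:115056426-115071755), a basic helix-loop-helix factor required for all blood lineages, was at 0.326, 0.364 and 0.939 CPM in iETV2 without DOX and 37.8, 39.5 and 36.3 CPM in iETV2 with DOX. The corresponding H188A levels were 1.34, 0.852 and 0.667 CPM untreated and 10.5, 12.8 and 13.2 CPM treated. Both lines rose well clear of their untreated libraries, and every H188A library with DOX was below every iETV2 library with DOX. The fitted change was 6.23 in iETV2 and 3.79 in the H188A line, with an interaction of -2.44 ± 0.35 (SE, adjusted p = 1.72e-04), and the H188A line reached 32.2% of the iETV2 level with DOX. Its untreated levels differed by 0.90, below the 2-fold line used here.

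Hand1 (ENSMUSG00000037335, chr11:57828713-57832147), which encodes a regulator needed for heart tube and yolk sac formation, was at 0.79, 0.637 and 0.986 CPM in iETV2 without DOX and 115, 122 and 116 CPM in iETV2 with DOX. Without DOX the H188A line was at 1.17, 1.15 and 1.32 CPM, and with DOX at 1.2, 1.14 and 1.01 CPM. Only the iETV2 libraries with DOX were high, and the treated and untreated H188A libraries overlapped. The change was 7.24 ± 0.12 (SE, adjusted p = 2.62e-15) in iETV2 and -0.08 ± 0.14 (SE, adjusted p = 0.735) in the H188A line, an interaction of -7.32 ± 0.19 (SE, adjusted p = 3.23e-12).

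Tek (ENSMUSG00000006386, chr4:94739086-94874976), the endothelial receptor for angiopoietins, was at 2.03, 2.12 and 2.3 CPM in iETV2 without DOX and 41.3, 41.1 and 39.8 CPM in iETV2 with DOX. In the H188A line it was at 30.4, 32.1 and 31.2 CPM without DOX and 40.7, 40.9 and 42.9 CPM with DOX. The untreated H188A libraries were already high, and with DOX the libraries of both lines overlapped. The interaction was -3.79 ± 0.11 (SE, adjusted p = 5.59e-12), while the difference between lines was 3.91 ± 0.09 (SE, adjusted p = 3.58e-14) without DOX and 0.12 ± 0.07 (SE, adjusted p = 0.184) with DOX. The H188A line still rose with DOX, by 0.46 on the log2 scale, or by 10.3 ± 0.863 CPM (SE) against 38.6 ± 0.487 CPM in iETV2.

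Cdh5 (ENSMUSG00000031871, chr8:104101613-104144504), the VE-cadherin of endothelial junctions, was at 1.07, 0.697 and 1.39 CPM in iETV2 without DOX and 63.1, 64.4 and 66.8 CPM in iETV2 with DOX. For the H188A line the levels were 5.53, 4.63 and 3.87 CPM without DOX and 35.3, 27.8 and 24.6 CPM with DOX. The H188A libraries were higher than iETV2 without DOX and lower with DOX, with no overlap in either state. Both lines rose, by 6.00 in iETV2 and 2.72 in the H188A line, and the interaction was -3.29 ± 0.24 (SE, adjusted p = 1.61e-07). In these bulk libraries, fewer cells of a type and less RNA per cell cannot be told apart, here or in the results that follow.

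**Figure D1:**
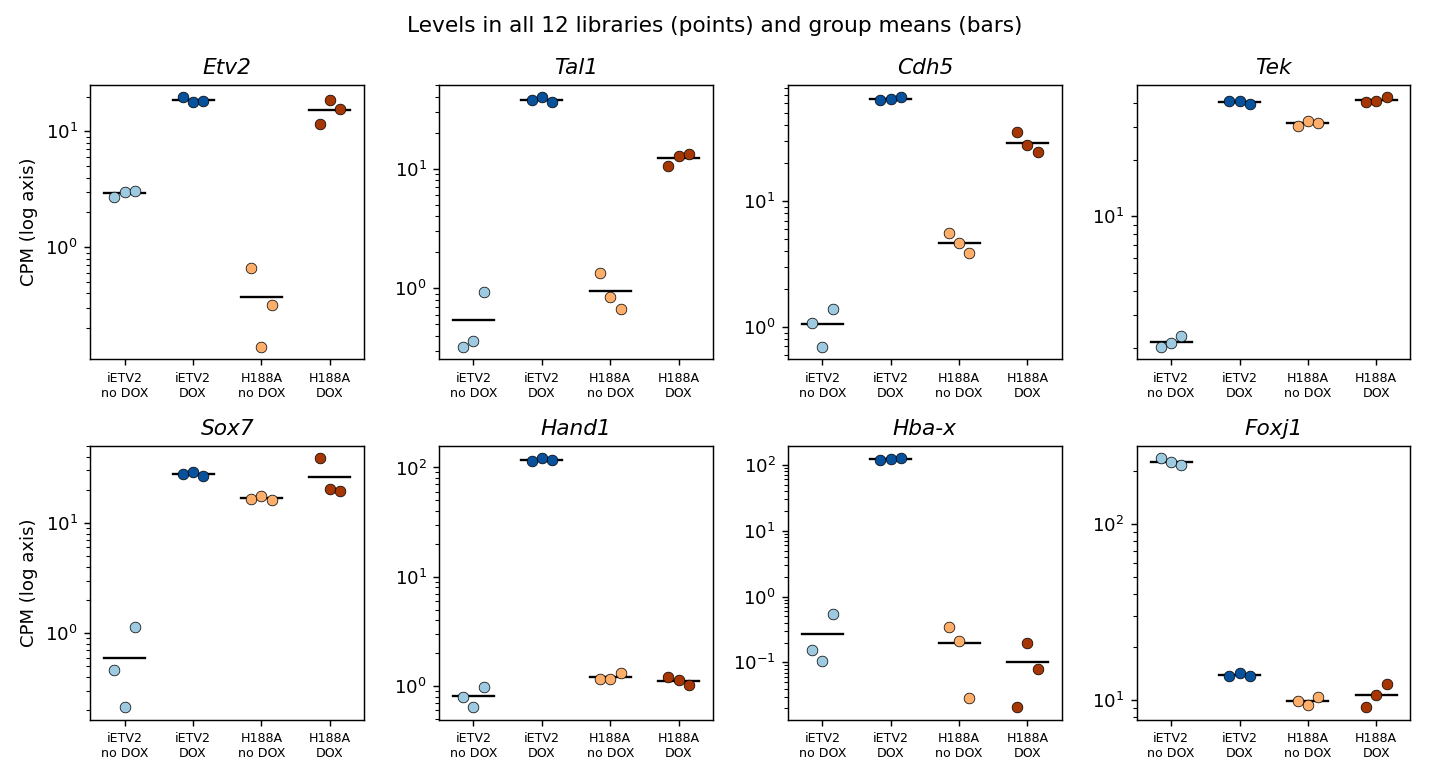
CPM on log axes in the 12 libraries (points, 3 per group) with group means (bars) for 8 genes. Etv2 reached overlapping levels with DOX in both lines, Tal1 and Cdh5 rose in both but less in the H188A line, Tek and Sox7 were already high there without DOX, Hand1 and Hba-x were high only in iETV2 with DOX, and Foxj1 was high only in iETV2 without DOX.

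Of 25516 genes tested with edgeR's quasi-likelihood test at an adjusted p of 0.05, 1581 (6.2%) had a negative and 2098 (8.22%) a positive interaction. The median interaction over all tested genes was -0.13. In iETV2, 2490 genes (9.76%) rose and 2489 (9.75%) fell with DOX, while in the H188A line 506 (1.98%) rose and 197 (0.772%) fell. At an unadjusted p under 0.05 in the same test, 7252 genes changed in iETV2 and 5988 in the H188A line. Replicates differed more in the H188A line, with a chi-square per degree of freedom between pairs of 13.6 to 177, against 8.78 to 26.4 in iETV2. The numbers of calls therefore do not measure how strongly each line responded. Of the 832 genes that rose at least 2-fold in iETV2, 680 (81.7%) had a negative interaction, 4 had a positive one and 148 had no call. Of the 850 that fell at least 2-fold, 551 (64.8%) had a positive interaction and 299 had no call. The interaction uses the iETV2 change itself, so these shares describe the overlap of the calls and are no separate evidence.

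**Figure D2:**
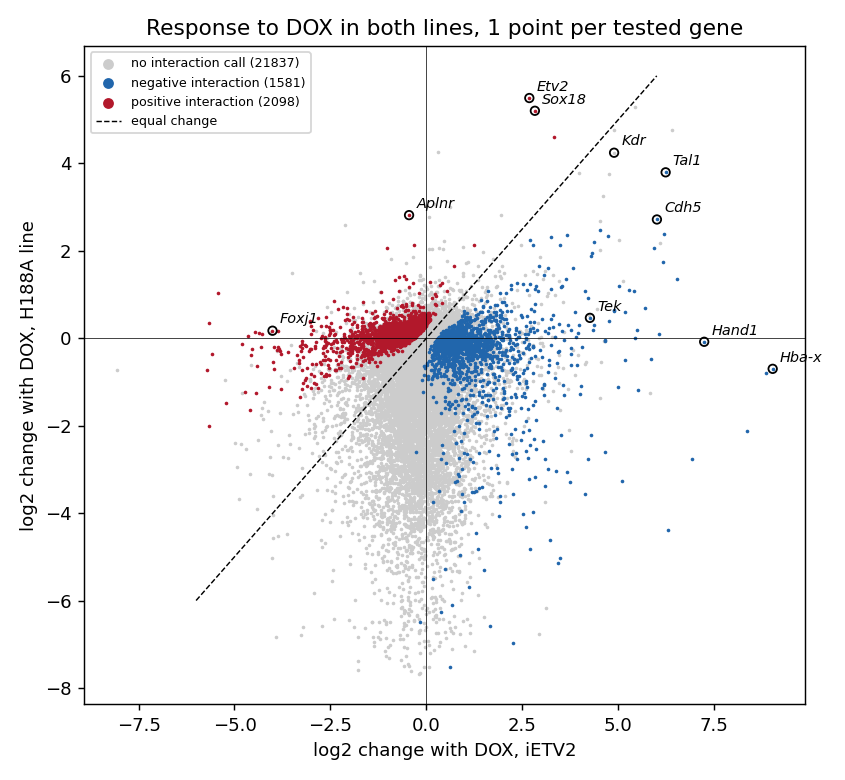
log2 change with DOX in the H188A line (vertical) against iETV2 (horizontal) for the 25516 tested genes, coloured by the sign of the interaction where it passed the test (1581 negative, 2098 positive). The coloured genes spread mainly along the horizontal axis, and Kdr lies close to the line of equal change.

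The lines also differed before treatment. By a 2-fold difference and an adjusted p of 0.05, 2199 genes (8.62%) were higher and 1580 (6.19%) lower in the H188A line without DOX, and 1784 (6.99%) were higher and 2158 (8.46%) lower with DOX. The 1318 genes that rose in iETV2 with a negative interaction divided by these differences. In 292 of them (22.2%) the untreated levels were within 2-fold or without a call and the H188A line was lower with DOX, a pattern called an unmet rise. In 467 the H188A line was higher without DOX and not lower with it by 2-fold and the test, called a raised start. A further 25 were higher without and lower with DOX, 113 were lower in both states, and 421 (31.9%) passed the 2-fold line in neither. Of the 1671 genes that fell in iETV2 with a positive interaction, 266 were similar without and higher with DOX (a missing fall), 429 were lower without and not higher with DOX (a lowered start), 14 were lower without and higher with DOX, 75 were higher in both states and 887 (53.1%) passed the 2-fold line in neither.

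**Figure D3:**
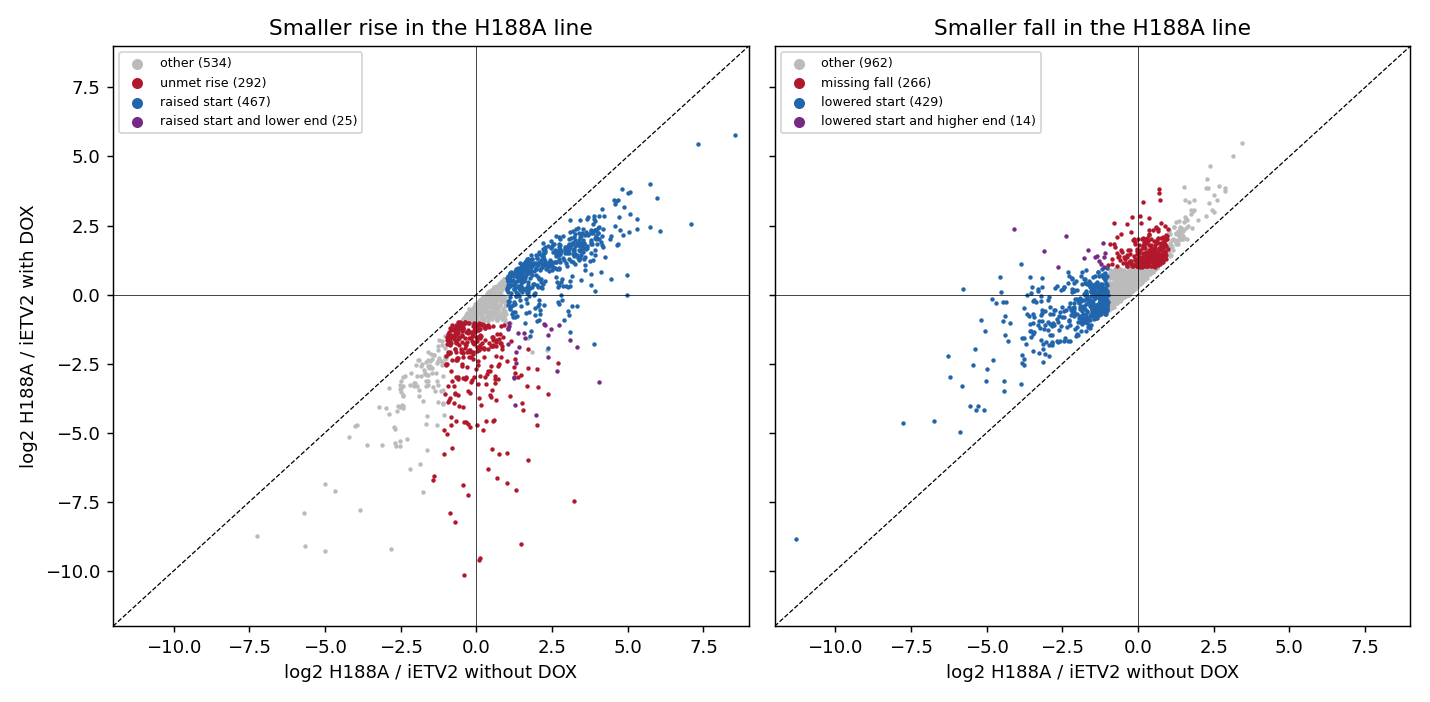
log2 difference between the H188A line and iETV2 with DOX (vertical) against without DOX (horizontal), for genes with a smaller rise (left, 1318) or a smaller fall (right, 1671) in the H188A line. The dashed line marks an equal difference in both states. Raised starts (467) and lowered starts (429) spread along the horizontal axis, unmet rises (292) and missing falls (266) along the vertical one, which is how the classes were drawn.

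Unmet rises were the genes for which the H188A line stayed behind. Over the 292 genes the median change was 1.58 in iETV2 and -0.28 in the H188A line, and with DOX the H188A line stood at a median of 25.2% of the iETV2 level. In the H188A line itself 19 of them rose, 19 fell and 254 had no call. The largest interactions among those with at least 1 CPM in a group were embryonic globins. Hba-x (chr11:32276600-32278116), the zeta-like alpha globin of primitive red cells whose promoter is shown above, was at 0.155, 0.106 and 0.54 CPM in iETV2 without DOX and 119, 124 and 126 CPM in iETV2 with DOX. Its levels in the H188A line were 0.347, 0.209 and 0.029 CPM without DOX and 0.0207, 0.1997 and 0.0805 CPM with DOX. All 3 iETV2 libraries with DOX were far above the other 9, which were below 1 CPM. The interaction was -9.72 ± 1.04 (SE, adjusted p = 8.84e-06).

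Hbb-bh1, an embryonic beta-like globin, was at 0.258, 0.0607 and 0.235 CPM in iETV2 without DOX and 80.8, 68.8 and 92.4 CPM in iETV2 with DOX. The corresponding H188A levels were 0.372, 0.244 and 0.0145 CPM untreated and 0.145, 0.12 and 0.0483 CPM treated, an interaction of -9.64 ± 0.98 (SE, adjusted p = 5.16e-06). Again only treated iETV2 was high. Hbb-y, another embryonic beta-like globin, reached 4.01, 4.59 and 5.38 CPM in treated iETV2 and at most 0.104 CPM elsewhere, and Hbb-bh0 reached 1.83, 1.76 and 1.69 CPM there and 0 in all 3 treated H188A libraries. The globin genes resemble each other in sequence, so reads could be shared among them. The call of Hbb-bh0 rested on few reads in the H188A line and was lost without the first untreated H188A library (adjusted p = 0.9999), and that of Hbb-y without the second (adjusted p = 0.979).

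Cd28, a T cell co-stimulatory receptor, and Hoxc8, a posterior patterning gene, also met the rule for the largest unmet rises. Cd28 was at 0.0859, 0.152 and 0.352 CPM without and 1.6, 1.48 and 2.24 CPM with DOX in iETV2, against 0.744, 0.226 and 0.188 CPM without and 0, 0.0399 and 0 CPM with DOX in the H188A line. Hoxc8 was at 0.43, 0.334 and 0.493 CPM without and 2.69, 2.37 and 2.95 CPM with DOX in iETV2, against 0.545, 0.244 and 0 CPM without and 0, 0.01997 and 0 CPM with DOX in the H188A line. Both were below 1 CPM in every H188A library and rose to 1.48 CPM or more only in treated iETV2. Their interactions were -7.84 ± 1.15 (SE, adjusted p = 1.91e-04) and -7.51 ± 1.41 (SE, adjusted p = 0.00164), and without the first untreated H188A library they were -7.03 (adjusted p = 0.000136) and -6.46 (adjusted p = 0.00283). At higher levels, Fn1, the fibronectin gene, was at 1058, 1109 and 1055 CPM without and 4844, 5166 and 4419 CPM with DOX in iETV2. In the H188A line it was at 919, 960.1 and 978 CPM without and 843, 948 and 905 CPM with DOX. Treated iETV2 stood far above all other libraries, and untreated iETV2 slightly above those of the H188A line. The Fn1 interaction was -2.21 ± 0.12 (SE, adjusted p = 1.06e-08).

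Raised starts differed in kind. Over the 467 genes the H188A line without DOX was higher by a median of 2.35, and its untreated level was at a median of 222% of the treated iETV2 level. The gain in CPM was smaller in the H188A line for 461 of the 467, a description only, since the same values defined the class. In the H188A line 8 rose, 12 fell and 447 had no call. Sox7 (chr14:63943706-63950732), an endothelial SOX factor, was at 0.464, 0.212 and 1.13 CPM in iETV2 without DOX and 27.9, 29.3 and 26.6 CPM in iETV2 with DOX. Without DOX the H188A line was at 16.7, 17.7 and 16.1 CPM, and with DOX at 38.8, 20.3 and 19.7 CPM. The untreated H188A libraries already stood above every untreated iETV2 library, and the first H188A library with DOX was the highest of all. The interaction was -4.99 ± 0.43 (SE, adjusted p = 1.08e-06), and the difference between lines with DOX did not pass the test (0.00 ± 0.24 SE, adjusted p = 0.995).

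The same first treated H188A library was high for Cubn, a receptor of absorptive and visceral endoderm cells, at 656, 323 and 315 CPM over the 3 libraries. Mmrn2 (chr14:34375504-34404287), an endothelial extracellular matrix protein, was at 0.653, 0.455 and 0.939 CPM without and 8.72, 9.53 and 11.1 CPM with DOX in iETV2, against 15.6, 13.4 and 13 CPM without and 14, 12.8 and 14.3 CPM with DOX in the H188A line. Untreated H188A was above treated iETV2, and the interaction was -3.87 ± 0.21 (SE, adjusted p = 1.37e-08). Igf1, the insulin-like growth factor, was at 0.189, 0.121 and 0.235 CPM without and 13.1, 14 and 11.3 CPM with DOX in iETV2, against 2.16, 1.3 and 0.58 CPM without and 8.65, 5.53 and 5.11 CPM with DOX in the H188A line. Here the H188A line rose as well, by 2.37 against 6.18 in iETV2, with an interaction of -3.81 ± 0.53 (SE, adjusted p = 1.23e-04).

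Tlr4, a receptor of innate immunity, was at 0.0172, 0.0303 and 0.0939 CPM without and 0.984, 1.74 and 1.64 CPM with DOX in iETV2, against 0.595, 0.417 and 0.116 CPM without and 0.809, 1.06 and 0.564 CPM with DOX in the H188A line, with an interaction of -3.81 ± 0.85 (SE, adjusted p = 0.00588), or -3.36 (adjusted p = 0.0106) without the first untreated H188A library. Myct1, a Myc target of endothelial cells, was at 0, 0.0152 and 0.0939 CPM without and 2.28, 2.24 and 2.65 CPM with DOX in iETV2, against 0.719, 0.174 and 0 CPM without and 1.47, 0.759 and 0.419 CPM with DOX in the H188A line. Its interaction, -4.44 ± 1.41 (SE, adjusted p = 0.0467), was lost in 12 of 19 alternatives, among them without the first untreated H188A library (-2.75, adjusted p = 0.211). Zscan4f, one of several near-identical genes of the 2-cell state, was at 0, 0 and 0.0235 CPM without and 0.0176, 0.0586 and 0.309 CPM with DOX in iETV2, against 1.26, 1.15 and 0.957 CPM without and 0.684, 1.02 and 0.419 CPM with DOX in the H188A line, and its interaction of -4.53 ± 1.34 (SE, adjusted p = 0.0328) was lost in 8 of 19 alternatives, such as without the second untreated H188A library.

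Among the 25 genes that were higher without and lower with DOX in the H188A line was Tbx3. Tbx3, a T-box factor of pluripotent and cardiac cells, was at 4.91, 6.19 and 5.61 CPM without and 144, 147 and 125 CPM with DOX in iETV2, against 47.7, 46.7 and 43.7 CPM without and 42.6, 42.5 and 41.3 CPM with DOX in the H188A line. The H188A libraries stood between the iETV2 groups, for an interaction of -4.72 ± 0.13 (SE, adjusted p = 5.59e-12) and a DOX effect in the H188A line of -0.07 ± 0.09 (SE, adjusted p = 0.634). Msx2, a homeobox target of BMP signalling, was at 0.498, 0.743 and 0.54 CPM without and 30.1, 25.9 and 23.9 CPM with DOX in iETV2, against 2.21, 0.939 and 1.28 CPM without and 2.01, 1.36 and 1.35 CPM with DOX in the H188A line, an interaction of -5.29 ± 0.37 (SE, adjusted p = 1.32e-07). Art4, a blood group enzyme (interaction -5.44), Lax1, an adaptor of lymphocyte receptors (-4.24), and Clca2 (-4.63) met the same rule, all at low levels. The call of Clca2 was lost with the chemosensory sum as a covariate (adjusted p = 0.1003).

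The same division held among genes that fell in iETV2. Missing falls, 266 genes, had a median change of -1.09 in iETV2 and 0.04 in the H188A line. Mapk10, which encodes the kinase JNK3, was at 14, 14.3 and 14.2 CPM without and 1.18, 1.38 and 1.89 CPM with DOX in iETV2, against 22.7, 21.6 and 22.9 CPM without and 20.1, 19.7 and 19.3 CPM with DOX in the H188A line. Only treated iETV2 was low, and the interaction was 3.12 ± 0.16 (SE, adjusted p = 5.91e-09). Lmx1b, a LIM homeobox factor, was at 11.5, 10.6 and 11.8 CPM without and 1.25, 1.25 and 1.62 CPM with DOX in iETV2, against 7.14, 5.15 and 6.42 CPM without and 8.58, 8.43 and 6.28 CPM with DOX in the H188A line, an interaction of 3.40 ± 0.22 (SE, adjusted p = 4.62e-08). Hesx1, a repressor of the anterior neural plate, was at 3.37, 3.26 and 3.4 CPM without and 0.193, 0.337 and 0.527 CPM with DOX in iETV2, against 2.55, 2.77 and 3.06 CPM without and 2.07, 2.32 and 2.58 CPM with DOX in the H188A line, an interaction of 3.02 ± 0.35 (SE, adjusted p = 2.21e-05). Nkx6-2, a homeobox factor of neural progenitors (3.18), Lpar3, a receptor for lysophosphatidic acid (2.91), and Galnt16, a glycosyltransferase (2.80), followed.

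Lowered starts, 429 genes, were lower in the untreated H188A line by a median of -1.70. Many of their larger interactions belonged to genes of motile cilia. Foxj1 (chr11:116330704-116335499), the transcription factor that drives motile cilia formation, was at 236, 223 and 217 CPM in iETV2 without DOX and 13.7, 14.2 and 13.7 CPM in iETV2 with DOX. In the H188A line it was at 9.84, 9.36 and 10.4 CPM without DOX and 9.1, 10.6 and 12.4 CPM with DOX. Only untreated iETV2 was high, and the treated iETV2 libraries were near the H188A ones. The change was -4.01 ± 0.11 (SE, adjusted p = 9.76e-13) in iETV2 and 0.17 ± 0.11 (SE, adjusted p = 0.331) in the H188A line, an interaction of 4.18 ± 0.15 (SE, adjusted p = 1.01e-10). Cfap206 (5.21), Dynlrb2 (6.01), Iqub (4.66), Dnajb13 (4.60) and Enkur (4.28), all of the ciliary axoneme or its transport, were likewise high only in untreated iETV2. Of these the call of Dynlrb2 was lost without the second treated H188A library (adjusted p = 0.0522).

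Among the 14 genes with a lower start and a higher end, Foxd4, a forkhead factor, was at 11.9, 11.1 and 10.1 CPM without and 0.176, 0.117 and 0.491 CPM with DOX in iETV2, against 0.669, 0.731 and 0.493 CPM without and 1.62, 1.1 and 0.998 CPM with DOX in the H188A line, an interaction of 6.45 ± 0.47 (SE, adjusted p = 1.81e-07). Tekt2, a tektin of cilia and flagella, was at 8.66, 9.08 and 10.4 CPM without and 0.439, 0.264 and 0.39995 CPM with DOX in iETV2, against 1.34, 0.8002 and 1.0004 CPM without and 0.684, 1.4 and 1.03 CPM with DOX in the H188A line, an interaction of 4.71 ± 0.37 (SE, adjusted p = 3.80e-07). In both, the H188A libraries lay between untreated and treated iETV2. Fam183b (4.47), Tppp3, a tubulin-binding protein (3.66), Ak7, an adenylate kinase of cilia (3.27), and Olfml2a (3.12) had the next largest interactions.

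Some features that the classes did not use were compared. Promoters with a GGAA core made up 94.8% of those of unmet rises and 94.8% of those of raised starts, 92.5% of those of missing falls and 95.8% of those of lowered starts, against 95.6% for tested genes. For CNGGAAGT the shares were 7.33%, 11.4%, 6.75% and 6.11% in the same order, against 11.6%. Of the 23 promoters of genes with a raised start and a lower end, 87.0% held the core and 0 held CNGGAAGT. On the X chromosome lay 3.85% of the unmet rises with a position and 5.83% of the raised starts (25 of 429), 5.04% of the missing falls and 2.64% of the lowered starts, against 3.39% of tested genes. These shares are descriptions without a test.

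Gene lists of lineages and pathways were described by the calls of their members, beside the 6.2% negative and 8.22% positive over all genes. Of 12 endothelial transcription factors, 3 had a negative and 3 a positive interaction, with a median of -0.41, or -0.24 without a filter on low counts and -0.20 with the chemosensory sum as a covariate. The negative ones were Sox7, Tal1 and Elk3, an ETS-family repressor that was at 8.69, 8.57 and 7.49 CPM without and 49.1, 52.1 and 49.4 CPM with DOX in iETV2, against 10.7, 9.17 and 9.73 CPM without and 20.4, 21.5 and 19.3 CPM with DOX in the H188A line and had an unmet rise (-1.51 ± 0.13 SE, adjusted p = 9.23e-07). Without the first treated H188A library 5 were negative. The positive ones were Sox18, Sox17 and Foxc2. Sox18, a SOX factor of vessels and lymphatics, was at 2.11, 2.18 and 1.22 CPM in iETV2 without DOX and 14.6, 13.4 and 11.5 CPM in iETV2 with DOX. For the H188A line the levels were 0.149, 0.174 and 0.203 CPM without DOX and 5.83, 6.61 and 6.89 CPM with DOX. It rose in both lines, more in fold in the H188A line from a lower start, for an interaction of 2.38 ± 0.35 (SE, adjusted p = 2.07e-04), yet treated H188A stayed below treated iETV2 in every library. Foxc2, a forkhead factor of mesoderm and lymphatics, was a lowered start (3.25), and Sox17, a SOX factor of endoderm and arteries, fell in iETV2 (-0.96) with no call in the H188A line (0.22 ± 0.21 SE, adjusted p = 0.525) and an interaction of 1.18 ± 0.29 (SE, adjusted p = 0.0118). Mean Sox17 levels were 28.7 CPM without and 14.6 CPM with DOX in iETV2, against 15.4 and 17.2 CPM in the H188A line.

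Of 30 endothelial surface and junction genes, 19 had a negative and 4 a positive interaction, with a median of -1.58. In iETV2 23 rose and in the H188A line 15, the latter with a median change of 0.82. Raised starts were the most numerous class, with 8 genes. Pecam1, the CD31 adhesion molecule, was at 5.7, 5.11 and 6.46 CPM without and 28, 28.3 and 30.2 CPM with DOX in iETV2, against 53.3, 52.6 and 52.2 CPM without and 50.5, 62.1 and 60.6 CPM with DOX in the H188A line. Untreated H188A stood above treated iETV2, with an interaction of -2.16 ± 0.11 (SE, adjusted p = 1.09e-08). Eng, endoglin, a co-receptor for TGF-beta ligands, was at 6.19, 6.85 and 7.33 CPM without and 44.6, 46 and 40.1 CPM with DOX in iETV2, against 45.6, 47.1 and 44.8 CPM without and 46.9, 62.6 and 61 CPM with DOX in the H188A line, where untreated H188A overlapped treated iETV2, an interaction of -2.34 ± 0.15 (SE, adjusted p = 4.18e-08). Esam, a junction adhesion molecule, was a raised start too (-3.06 ± 0.39 SE, adjusted p = 4.49e-05), although its untreated H188A level, 4.59, 4.3 and 2.73 CPM, was below treated iETV2, and it rose in both lines.

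Tie1, the partner receptor of Tek, and Mmrn1, a multimerin, had unmet rises, with interactions of -2.38 ± 0.67 (SE, adjusted p = 0.0248) and -5.96 ± 1.28 (SE, adjusted p = 0.00457). The call of Tie1 was lost in 6 of 19 alternatives, with the smallest interaction among the left-out libraries without the first untreated H188A one (-1.90, adjusted p = 0.0673); the other 3 libraries were the first untreated iETV2, the second treated iETV2 and the third treated H188A. The 4 positive genes were Aplnr, Apln, Flt1 and Rhoj. Apln, the ligand apelin, was at 146, 148 and 145 CPM without and 49.4, 48.9 and 48.4 CPM with DOX in iETV2, against 2.48, 2.82 and 3.58 CPM without and 2.99, 2.7 and 2.8 CPM with DOX in the H188A line, and its receptor gene Aplnr was at 262, 262 and 264 CPM in iETV2 without DOX and 195, 193 and 182 CPM in iETV2 with DOX. Its levels in the H188A line were 0.992, 0.4001 and 0.087 CPM without DOX and 3.01, 2.88 and 2.77 CPM with DOX. Both were far lower in the H188A line in every library, and Aplnr rose there only (2.81 ± 0.33 SE, adjusted p = 1.75e-04), for an interaction of 3.27 ± 0.37 (SE, adjusted p = 1.65e-05). Flt1, a VEGF receptor that binds the ligand without strong signalling, was at 136, 143 and 134 CPM without and 105, 109.8 and 98.8 CPM with DOX in iETV2, against 17.5, 14.3 and 13.3 CPM without and 30.5, 23.3 and 22.1 CPM with DOX in the H188A line. It fell in iETV2 and rose in the H188A line, an interaction of 1.20 ± 0.16 (SE, adjusted p = 1.05e-04). Rhoj, a small GTPase of endothelial cells, had an interaction of 1.28 ± 0.35 (SE, adjusted p = 0.0217), lost without the second or the third untreated H188A library (largest adjusted p = 0.0871).

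Of 22 genes of VEGF and Notch signalling, 5 were negative and 3 positive, with a median of -0.15 against -0.13 over all genes, and of 0.01 without a filter on low counts. Without the third treated H188A library the median was -0.06, and 6 were positive with a replicate block within each line. Nrp2, a co-receptor for VEGF-C, was at 35, 36.9 and 40.01 CPM without and 250.1, 251 and 231 CPM with DOX in iETV2, against 36.3, 31.9 and 32.1 CPM without and 52.7, 51.1 and 50.004 CPM with DOX in the H188A line. It rose in both lines, by 2.73 in iETV2 and 0.67 in the H188A line, an interaction of -2.05 ± 0.10 (SE, adjusted p = 4.99e-09). Nrp1, the co-receptor for VEGF-A, had -1.59 ± 0.32 (SE, adjusted p = 0.00319) from a lower level in both states. Notch4, the endothelial Notch receptor, was at 13.5, 12.2 and 13.8 CPM without and 35.1, 35.1 and 32.8 CPM with DOX in iETV2, against 9.07, 7.57 and 7.12 CPM without and 7.28, 7.67 and 7.94 CPM with DOX in the H188A line and had an unmet rise (-1.39 ± 0.13 SE, adjusted p = 2.04e-06). Vegfc, a lymphatic growth factor, had a raised start (-1.83), and the ligand Vegfa a lowered start (0.96). Notch2 fell in iETV2 with an interaction of 0.74 ± 0.13 (SE, adjusted p = 8.71e-04). The other positive gene, the ligand gene Jag2, lost its call in 13 of 19 alternatives.

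Of 18 blood transcription factors, 9 were negative and 1 positive, with a median of -1.26. In iETV2 11 rose, and in the H188A line 7 did. Runx1, required for definitive blood stem cells, was at 4.78, 4.47 and 5.38 CPM in iETV2 without DOX and 33.5, 34.9 and 30.03 CPM in iETV2 with DOX. The corresponding H188A levels were 19.5, 18.8 and 20.9 CPM untreated and 19.8, 15.1 and 14.7 CPM treated. All H188A libraries lay between the iETV2 groups, the change in that line did not pass the test (-0.21 ± 0.12 SE, adjusted p = 0.285), and it had an interaction of -2.98 ± 0.17 (SE, adjusted p = 2.34e-08). Lmo2, a bridging factor in the Tal1 complex, was at 5.14, 4.56 and 4.58 CPM in iETV2 without DOX and 62.7, 57.5 and 58.6 CPM in iETV2 with DOX. Without DOX the H188A line was at 1.54, 1.2 and 1.74 CPM, and with DOX at 5.68, 8.89 and 7.86 CPM. It rose in both lines but the treated H188A libraries stood just above untreated iETV2, an interaction of -1.29 ± 0.22 (SE, adjusted p = 7.64e-04). Zfpm1, the GATA cofactor FOG1, was at 20.9, 19.8 and 18.7 CPM without and 66.3, 67.4 and 51.7 CPM with DOX in iETV2, against 10.1, 10.3 and 11.1 CPM without and 17.1, 17.5 and 15.1 CPM with DOX in the H188A line, an unmet rise with -0.95 ± 0.17 (SE, adjusted p = 8.88e-04). Klf1, the erythroid Krüppel-like factor, reached 1.83, 2.2 and 1.78 CPM in treated iETV2 and stayed below 0.5 CPM in the other groups (-4.74 ± 0.95 SE, adjusted p = 0.00265). The positive gene was Hhex, a homeobox factor of endoderm and blood progenitors, which rose in the H188A line (1.04 ± 0.17 SE, adjusted p = 0.00331) from a lower start.

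Of 18 tested blood and erythroid effector genes, 9 were negative and 2 positive, with a median of -2.97. The median was -4.50 without the third untreated iETV2 library and -1.04 with the chemosensory sum as a covariate, and 6 genes were negative without the second untreated H188A library. In iETV2 10 rose, and the median change in the H188A line was -0.62. Beside the globins, Hemgn, a nuclear protein of erythroid cells, reached 2.42, 1.76 and 2.71 CPM in treated iETV2 and 0, 0.0999 and 0.0161 CPM in treated H188A (-6.50 ± 1.34 SE, adjusted p = 0.00345). The 2 positive ones were Tspan33, a tetraspanin of erythroid and B cells (1.03 ± 0.13 SE, adjusted p = 3.95e-05), and Kit, the stem cell factor receptor (0.67 ± 0.21 SE, adjusted p = 0.0435), whose call was lost in 10 of 19 alternatives, among them without any 1 of 8 libraries (lowest value 0.37, adjusted p = 0.157, without the first treated H188A library, which was the highest at 104 CPM). Without any 1 of those 8 the list had 1 positive gene.

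Of 19 tested genes of cardiac and extraembryonic mesoderm, 15 were negative, with a median of -3.02. In iETV2 17 rose, while in the H188A line 1 rose and 2 fell, with a median change of -0.22. Hand2, the sister factor of Hand1, was at 0.515, 0.227 and 0.47 CPM without and 5.39, 5.6 and 4.89 CPM with DOX in iETV2, against 0.595, 0.104 and 0.0145 CPM without and 0, 0.0599 and 0 CPM with DOX in the H188A line, an interaction of -7.02 ± 1.26 (SE, adjusted p = 0.00114). Bmp4, a ligand that induces extraembryonic mesoderm, was at 6.32, 5.35 and 6.67 CPM in iETV2 without DOX and 56.2, 57.4 and 57.8 CPM in iETV2 with DOX. In the H188A line it was at 15.6, 14.1 and 14.1 CPM without DOX and 9.31, 13.5 and 15 CPM with DOX. Untreated H188A was above untreated iETV2, treated H188A was far below treated iETV2, and the interaction was -3.39 ± 0.18 (SE, adjusted p = 1.26e-08). Msx1, a homeobox target of BMP signalling, was at 4.66, 4.34 and 4.58 CPM without and 65.6, 57.5 and 59.9 CPM with DOX in iETV2, against 1.44, 1.46 and 1.3 CPM without and 1.16, 1.16 and 1.14 CPM with DOX in the H188A line. Treated iETV2 stood apart, and the H188A libraries were below untreated iETV2 in both states (-3.99 ± 0.15 SE, adjusted p = 1.56e-10). Foxf1, a forkhead factor of lateral mesoderm, had -4.25 ± 0.46 (SE, adjusted p = 1.05e-05). Mesp1, a factor of the first cardiac mesoderm, was at most 0.174 CPM in any H188A library and reached 17, 16.7 and 13.6 CPM in treated iETV2. Its interaction of -3.44 ± 1.01 (SE, adjusted p = 0.0318) was lost without the first untreated H188A library (-1.79, adjusted p = 0.505), the first untreated iETV2 library or the first or the third treated H188A library. Without the first untreated H188A library 11 of the 19 genes were negative.

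The primitive streak list differed most before treatment: 18 of 21 genes were lower in the untreated H188A line, by a median of -4.99, and 19 were lower with DOX. Its interactions were mixed, 9 negative and 5 positive, with a median of 0.12. That median was -0.38 without the second treated H188A library, -0.03 with the chemosensory sum as a covariate and 0.02 without the third treated H188A library, so it has no stable sign. T was at 894, 844 and 847 CPM in iETV2 without DOX and 695, 652 and 689.9 CPM in iETV2 with DOX. For the H188A line the levels were 0.57, 0.313 and 0.188 CPM without DOX and 1.26, 1.66 and 1.26 CPM with DOX. The H188A libraries were far below the iETV2 ones in both states, so its interaction of 2.46 ± 0.25 (SE, adjusted p = 5.86e-06) combines a fall from 862 to 679 CPM in iETV2 with a rise to 1.39 CPM in the H188A line. Mixl1, a homeobox gene of the streak, was at 79.2, 74.6 and 70.8 CPM without and 325, 325 and 301 CPM with DOX in iETV2, against 0.496, 0.609 and 0.333 CPM without and 0.601, 1.02 and 0.515 CPM with DOX in the H188A line, an interaction of -1.47 ± 0.30 (SE, adjusted p = 0.00318). Evx1, an even-skipped homologue of the posterior streak, was at 9.3, 8.45 and 9.39 CPM without and 67.4, 62.2 and 60.4 CPM with DOX in iETV2, against 0.496, 0.226 and 0.159 CPM without and 0.0207, 0.18 and 0.0805 CPM with DOX in the H188A line, an interaction of -4.26 ± 0.51 (SE, adjusted p = 2.61e-05).

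Cdx4, a caudal factor that activates posterior Hox genes, was at 0.241, 0.379 and 0.235 CPM without and 9.37, 9.41 and 8.8 CPM with DOX in iETV2, against 0.496, 0.348 and 0.377 CPM without and 0.187, 0.26 and 0.0966 CPM with DOX in the H188A line. It was the list's unmet rise (-6.11 ± 0.42 SE, adjusted p = 1.08e-07), as the untreated lines did not pass the test for a difference and only treated iETV2 was high. Lhx1, a LIM homeobox gene, was at 201, 209 and 189 CPM without and 99.6, 101 and 88.8 CPM with DOX in iETV2, against 1.46, 1.06 and 0.377 CPM without and 2.65, 4.29 and 3.8 CPM with DOX in the H188A line, an interaction of 3.09 ± 0.32 (SE, adjusted p = 6.58e-06). Foxa2, a forkhead factor of the anterior streak and endoderm, was at 111, 113 and 102 CPM without and 18.7, 19.4 and 19.1 CPM with DOX in iETV2, against 6.15, 5.72 and 4.49 CPM without and 8.85, 3.51 and 4.62 CPM with DOX in the H188A line, an interaction of 2.62 ± 0.31 (SE, adjusted p = 2.40e-05). Rspo3, an enhancer of WNT signalling, rose in both lines, from 69.7, 73.6 and 70.5 CPM in iETV2 and 0.62, 0.591 and 0.493 CPM in the H188A line, with an interaction of 0.92 ± 0.18 (SE, adjusted p = 0.00206). Wnt3a, a posterior WNT ligand, rose in iETV2 (1.08) and fell in the H188A line (-1.62 ± 0.39 SE, adjusted p = 0.0391), an interaction of -2.70 ± 0.47 (SE, adjusted p = 8.45e-04). That fall was at low levels, from 1.02, 0.313 and 0.391 CPM without to 0.187, 0.16 and 0.161 CPM with DOX. The first untreated H188A library was the highest of them. Lefty2, a Nodal antagonist, had a raised start (-0.97).

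Pluripotency genes showed the reverse start. Of 27 genes, 22 were higher in the untreated H188A line, 17 had a negative and 2 a positive interaction, and 15 were raised starts. In iETV2 17 rose with DOX, and the median change in the H188A line was -0.05. Dppa5a, an RNA-binding protein of pluripotent cells, was at 19.6, 17 and 19 CPM in iETV2 without DOX and 54.9, 51.5 and 59.2 CPM in iETV2 with DOX. Its levels in the H188A line were 168, 169.7 and 159.6 CPM without DOX and 153, 159 and 172 CPM with DOX. The H188A libraries stood above all iETV2 ones in both states, and iETV2 rose part of the way (1.59 ± 0.07 SE, adjusted p = 3.32e-10), an interaction of -1.57 ± 0.10 (SE, adjusted p = 4.67e-08). Esrrb, a nuclear receptor of naive pluripotency, was at 23.1, 23.6 and 21.4 CPM without and 61.2, 55.4 and 54.7 CPM with DOX in iETV2, against 307, 308 and 301 CPM without and 239, 283 and 281 CPM with DOX in the H188A line, an interaction of -1.48 ± 0.12 (SE, adjusted p = 6.52e-07). Dppa4 (-1.79 ± 0.12 SE, adjusted p = 1.17e-07), a chromatin factor, and Nr5a2 (-1.44 ± 0.10 SE, adjusted p = 1.25e-07), a nuclear receptor, were raised starts as well. The 2 positive genes were Pou5f1, the OCT4 gene (0.53 ± 0.16 SE, adjusted p = 0.0378), and Sall4, a zinc finger factor (0.46 ± 0.12 SE, adjusted p = 0.0149). Their calls were lost in 8 and 6 of 19 alternatives, and 0 to 4 genes of the list were positive when 1 library was left out. Nanog (0.28 ± 0.11 SE, adjusted p = 0.0896) and Sox2 (0.23 ± 0.13 SE, adjusted p = 0.283) had no call, but Nanog passed with a stricter filter on low counts, with a replicate block within each line and without the third untreated H188A library (0.36, adjusted p = 0.0341).

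Germline genes, most of them of meiosis and the piRNA pathway, had nearly the same pattern. Of 20 tested, 18 were higher in the untreated H188A line, 15 were negative, all 15 as raised starts, and 1 was positive. Tex14, a protein of germ cell bridges, was at 2.85, 3.09 and 2.47 CPM without and 11.2, 9.21 and 9.65 CPM with DOX in iETV2, against 22.6, 24.4 and 24.2 CPM without and 18.5, 23.7 and 22.6 CPM with DOX in the H188A line. Both treated and untreated H188A libraries were above treated iETV2, and the interaction was -1.92 ± 0.17 (SE, adjusted p = 1.75e-06). Tex11 (-2.03 ± 0.30 SE, adjusted p = 2.28e-04), a meiotic gene on the X chromosome, Rpl10l (-2.03 ± 0.38 SE, adjusted p = 0.00171), a testis ribosomal protein, Stag3 (-0.74 ± 0.12 SE, adjusted p = 3.54e-04), a meiotic cohesin subunit, and Dazl (-2.34 ± 0.51 SE, adjusted p = 0.0047), a germ cell RNA-binding protein, followed. The positive gene was Rec8, another meiotic cohesin (0.56 ± 0.14 SE, adjusted p = 0.00974).

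Of 12 tested genes of the 2-cell state, 9 were higher in the untreated H188A line by a median over the list of 4.48, and Zscan4f had the interaction call, with 0 to 2 calls when 1 library was left out. Many of these genes are near-identical copies.

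Motile cilia genes gave the highest median interaction of the lists, 2.78, with 18 of 21 positive. All 21 fell in iETV2, 2 fell in the H188A line, and 19 were lower in the untreated H188A line. The class was a lowered start in 14. Ccdc39 and Ccdc40, which set the spacing of the axoneme's parts, were at 25.2, 29.2 and 28.7 CPM and 48, 46.1 and 45.9 CPM in untreated iETV2 and at 4.62, 4.06 and 3.71 CPM and 7.54, 8.24 and 9.94 CPM in treated iETV2. In the untreated H188A line they were at 6.47, 5.15 and 6.13 CPM and 14.2, 12.7 and 12.8 CPM. Their interactions were 2.79 ± 0.18 (SE, adjusted p = 4.62e-08) and 2.33 ± 0.13 (SE, adjusted p = 2.19e-08).

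Glycolysis and hypoxia response genes had 20 positive interactions among 24, with a median of 1.14. In iETV2 21 fell, by a median over the list of -0.92, and the median in the H188A line was 0.17. Slc2a1, the glucose transporter GLUT1, was at 959.8, 897 and 928 CPM in iETV2 without DOX and 307, 275 and 303 CPM in iETV2 with DOX. The corresponding H188A levels were 457, 477 and 474 CPM untreated and 446, 491 and 482 CPM treated. The H188A libraries lay between untreated and treated iETV2, and their change with DOX did not pass the test (0.06 ± 0.07 SE, adjusted p = 0.579), an interaction of 1.70 ± 0.10 (SE, adjusted p = 2.49e-08). Ndrg1, a hypoxia-induced gene, was at 147, 141 and 151 CPM without and 24.2, 24.7 and 25.1 CPM with DOX in iETV2, against 20.4, 18.6 and 18.2 CPM without and 14.7, 17.6 and 18.3 CPM with DOX in the H188A line, so untreated H188A was already below treated iETV2 (2.44 ± 0.11 SE, adjusted p = 1.22e-09). Bnip3, a mitochondrial autophagy receptor, had 2.10 ± 0.09 (SE, adjusted p = 1.22e-09). Pgk1, a glycolytic kinase, had 1.31 ± 0.09 (SE, adjusted p = 1.61e-07), and Ldha, the lactate dehydrogenase subunit, 1.07 ± 0.12 (SE, adjusted p = 1.10e-05). Adm, the vasodilator peptide adrenomedullin, had 2.58 ± 0.30 (SE, adjusted p = 1.99e-05).

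Neuroectoderm genes were 10 positive and 1 negative of 23, with a median of 0.71, or 1.13 without the third treated iETV2 library. In iETV2 12 fell, and in the H188A line 6 fell. Without the first treated H188A library 2 were negative. Without DOX 11 were higher in the H188A line. Pou3f1, the POU factor OCT6, was at 31.1, 31.6 and 27.2 CPM in iETV2 without DOX and 5.87, 4.998 and 4.96 CPM in iETV2 with DOX. Without DOX the H188A line was at 77.4, 87.7 and 86.7 CPM, and with DOX at 63.4, 74.7 and 82.7 CPM. The H188A line was higher in both states and did not change by the test (-0.14 ± 0.11 SE, adjusted p = 0.457), and the interaction was 2.36 ± 0.17 (SE, adjusted p = 1.40e-07). Otx2, a homeobox factor of epiblast and forebrain, was at 142, 139 and 139 CPM without and 58.9, 57.1 and 57.8 CPM with DOX in iETV2, against 135, 155 and 160.2 CPM without and 145, 155 and 156 CPM with DOX in the H188A line, a missing fall with 1.33 ± 0.11 (SE, adjusted p = 9.06e-07). Zic2, a zinc finger factor, had a missing fall as well (1.09 ± 0.12 SE, adjusted p = 1.45e-05), and Sox1, an early neural SOX factor, was higher in the H188A line in both states (1.90 ± 0.26 SE, adjusted p = 1.03e-04). Six3, a forebrain factor, had a lowered start (3.58 ± 0.56 SE, adjusted p = 3.73e-04). Zic1, the negative gene, fell in the H188A line (-1.20 ± 0.22 SE, adjusted p = 0.00845).

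The formative epiblast list shares Otx2 and Pou3f1 with the neuroectoderm list, and 8 of its 11 genes were positive and 1 negative, with a median of 0.70. Fgf5, a growth factor of the epiblast, was at 132, 137 and 139.7 CPM without and 45.2, 44.4 and 41.4 CPM with DOX in iETV2, against 60.3, 64.9 and 64.8 CPM without and 54.7, 69 and 68.1 CPM with DOX in the H188A line, an interaction of 1.69 ± 0.12 (SE, adjusted p = 1.99e-07). Dnmt3b, a de novo DNA methyltransferase, had a missing fall (0.70 ± 0.15 SE, adjusted p = 0.00454). Igfbp2, an IGF-binding protein, had 1.05 ± 0.13 (SE, adjusted p = 3.11e-05), and Lef1, a WNT effector, was the negative one (-0.88 ± 0.18 SE, adjusted p = 0.00307).

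**Figure D4:**
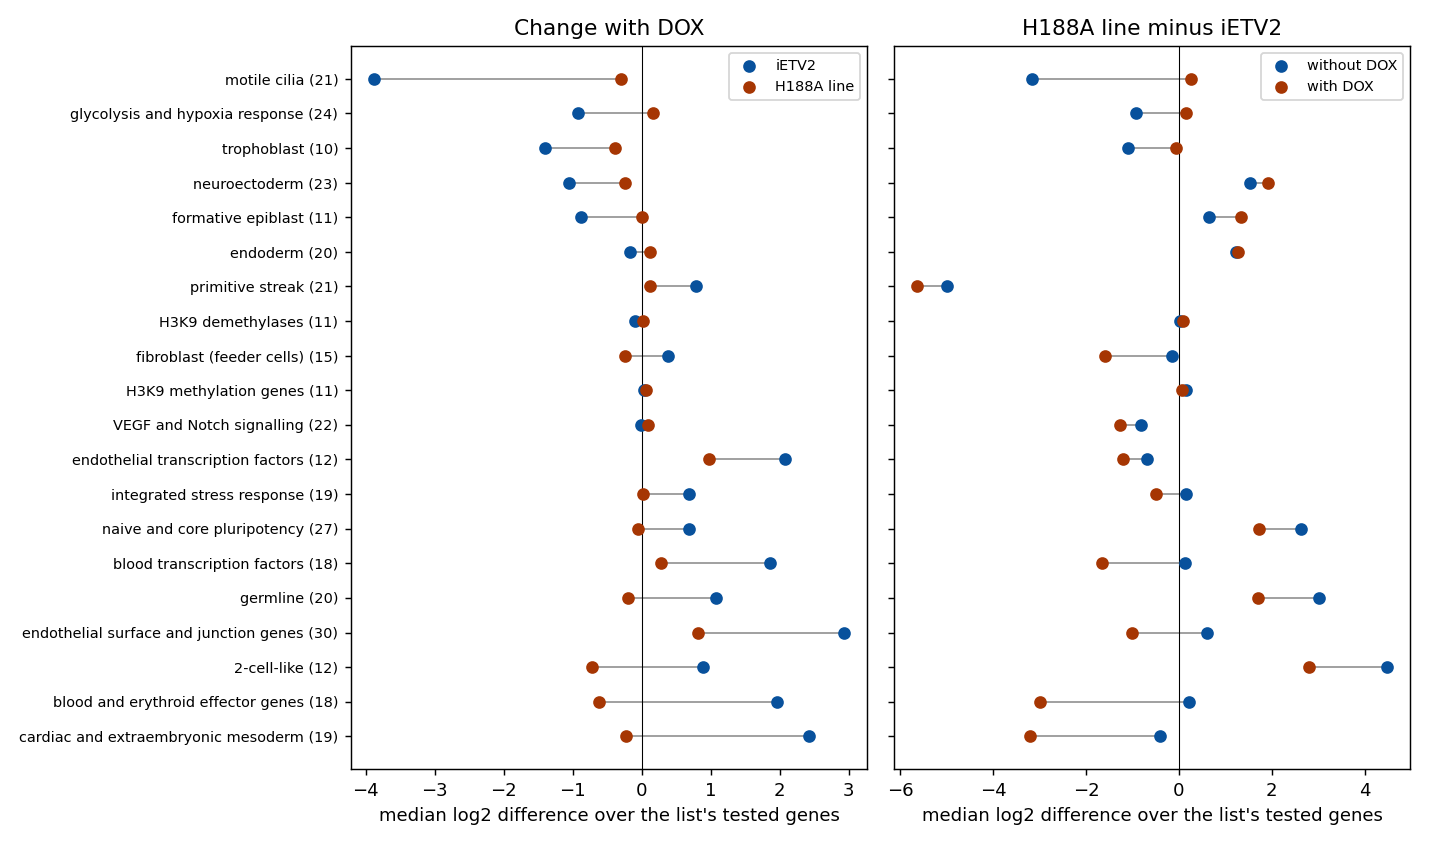
Median log2 difference over the tested genes of 20 lists (number in brackets). Left, the change with DOX in iETV2 (blue) and the H188A line (brown); right, the difference between lines without DOX (blue) and with DOX (brown). The medians of the change in the H188A line lie nearer 0 than those in iETV2 for most lists, and primitive streak, 2-cell-like, germline, pluripotency and motile cilia genes differ most without DOX.

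The integrated stress response list had 14 negative and 1 positive of 19, with a median of -0.63, but 5 negative without a filter on low counts. In iETV2 14 rose, and the median change in the H188A line was 0.03. Slc7a11, the cystine transporter, was at 4.9999, 4.46 and 5.59 CPM without and 12.7, 13.7 and 14.2 CPM with DOX in iETV2, against 10.1, 9.97 and 8.08 CPM without and 4.91, 6.73 and 7.59 CPM with DOX in the H188A line, an interaction of -1.94 ± 0.19 (SE, adjusted p = 3.95e-06). Asns, asparagine synthetase, was at 158, 146 and 145 CPM without and 259, 245 and 283 CPM with DOX in iETV2, against 115, 113 and 110.0 CPM without and 121, 126 and 129.7 CPM with DOX in the H188A line, an interaction of -0.61 ± 0.10 (SE, adjusted p = 3.92e-04). Only treated iETV2 was high for Asns. Without a filter on low counts the calls of Asns and Psat1 were lost. Psat1, an enzyme of serine synthesis, had -0.63 ± 0.10 (SE, adjusted p = 3.11e-04), Vldlr, a lipoprotein receptor, -0.90 ± 0.11 (SE, adjusted p = 3.67e-05), and Cth, an enzyme of cysteine synthesis, -1.001 ± 0.11 (SE, adjusted p = 8.84e-06). Vldlr was lower in the H188A line in both states, at a mean of 11.1 CPM without and with DOX, against 61.9 and 118 CPM in iETV2. Ddit4, an inhibitor of mTORC1, went the other way (1.80 ± 0.11 SE, adjusted p = 4.12e-08).

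Genes that remove or write the H3K9 mark were described next. Of 11 H3K9 demethylase genes, 5 were positive, and all 5 fell in iETV2. The list median was 0.11, -0.01 with the chemosensory sum as a covariate and 0.26 without a filter on low counts. Kdm3a, a demethylase of mono- and dimethylated lysine 9, was at 170.1, 174 and 167 CPM without and 108, 107 and 108 CPM with DOX in iETV2, against 176, 177 and 174 CPM without and 182, 170.2 and 159.8 CPM with DOX in the H188A line. Only treated iETV2 was low (0.66 ± 0.10 SE, adjusted p = 1.89e-04). Kdm4b (0.60 ± 0.10 SE, adjusted p = 5.13e-04), Kdm4c (0.40 ± 0.11 SE, adjusted p = 0.0188) and Kdm7a (0.62 ± 0.13 SE, adjusted p = 0.00315) also fell in iETV2 with no call in the H188A line. The count fell to 2 without the first treated H188A library and to 3 without any 1 of 5 others, and the call of Kdm4c was lost in 7 of 19 alternatives. That of Kdm7a was lost without the first treated H188A library (adjusted p = 0.0581). Of 11 H3K9 methylation genes 1 was negative, the methyltransferase gene Suv39h1 (-0.47 ± 0.11 SE, adjusted p = 0.00581), whose call was lost without a filter on low counts.

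Lists for other cell types were mixed. Of 20 endoderm genes 3 were negative and 5 positive (5 negative without the first treated H188A library). Cubn was at 2.9, 1.87 and 3.59 CPM without and 9.52, 11 and 11.4 CPM with DOX in iETV2, against 422, 418 and 425 CPM without and 656, 323 and 315 CPM with DOX in the H188A line, Apob, an apolipoprotein, was at 3.52, 2.76 and 3.45 CPM without and 11.4, 11.7 and 14.9 CPM with DOX in iETV2, against 34.4, 28.7 and 25.3 CPM without and 39.5, 27 and 27.2 CPM with DOX in the H188A line, and both were raised starts (-1.89 ± 0.35 SE, adjusted p = 0.00141, and -1.83 ± 0.22 SE, adjusted p = 2.53e-05). Trf, transferrin, was another (-2.56 ± 0.31 SE, adjusted p = 3.04e-05). Cldn6, a claudin of epithelia (1.80 ± 0.12 SE, adjusted p = 8.99e-08), and Epcam, an epithelial adhesion molecule (0.81 ± 0.12 SE, adjusted p = 2.18e-04), fell in iETV2 with no call in the H188A line. Of 15 tested fibroblast genes, listed because feeder cells can be present, 6 were negative and 1 positive (2 without the third untreated library of either line or the first treated H188A one). Besides Fn1 the negative ones included Pdgfrb, a receptor of mural cells (-1.52 ± 0.14 SE, adjusted p = 2.20e-06), Twist2 (-3.81 ± 0.73 SE, adjusted p = 0.00197), a factor of mesenchyme, and Acta2, smooth muscle actin (-1.55 ± 0.31 SE, adjusted p = 0.00268). Col1a1, a defining fibroblast collagen, was at 1.42 to 14.3 CPM over the libraries and Thy1 at 4.28 to 11.9 CPM. The part of feeder cells in the results was not tested. Of 10 tested trophoblast genes 1 was negative, Tfap2c (-0.57 ± 0.13 SE, adjusted p = 0.00893), and 3 were positive, the keratins Krt18 (1.62 ± 0.12 SE, adjusted p = 2.60e-07) and Krt8 (1.13 ± 0.14 SE, adjusted p = 4.39e-05) and Plet1 (1.90 ± 0.21 SE, adjusted p = 1.02e-05). The call of Tfap2c was lost without the first treated H188A library and without a filter on low counts (largest adjusted p = 0.2565). Without the third treated iETV2 library 5 trophoblast genes were positive.

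Only 9 genes rose in iETV2 and had a positive interaction, that is, a larger fold in the H188A line. Besides Etv2, Sox18, Rhoj and Rspo3 they included Wnt3, the WNT ligand of streak formation, at 25.2, 24.2 and 23.9 CPM without and 58.7, 55.3 and 56.8 CPM with DOX in iETV2, against 1.96, 1.3 and 0.928 CPM without and 4.93, 5.87 and 6.06 CPM with DOX in the H188A line. The median untreated H188A level of the 9 genes was 2.45% of the treated iETV2 level, and all 9 rose in the H188A line. A further 418 positive genes had no call in iETV2, and 112 of these rose in the H188A line. By the rule for the largest, these included Aplnr, Rtn4rl2, a Nogo receptor homologue (2.14 ± 0.41 SE, adjusted p = 0.00179), Mir6236 (2.11 ± 0.63 SE, adjusted p = 0.0354) and mt-Rnr1, the mitochondrial 12S ribosomal RNA. mt-Rnr1 was at 48.3, 38 and 37.8 CPM without and 13.3, 25.9 and 43.5 CPM with DOX in iETV2, against 18.1, 29.6 and 9.93 CPM without and 44.3, 71 and 32.3 CPM with DOX in the H188A line, and its groups overlapped (2.01 ± 0.53 SE, adjusted p = 0.0168). The call of Mir6236 was lost in 8 of 19 alternatives.

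Negative interactions without a call in iETV2 numbered 263, of which 54 fell in the H188A line and 60 were below 1 CPM in every group. Their largest were Crh, the corticotropin-releasing hormone gene, Tubb1, a platelet tubulin, Ankrd55, Hand2os1, a non-coding RNA beside Hand2, Iigp1, an interferon-induced GTPase, and Adamtsl2. Crh was at 0.79, 0.303 and 0.399 CPM without and 1.28, 1.13 and 1.35 CPM with DOX in iETV2, against 0.174, 0.0174 and 0.0145 CPM without and 0, 0 and 0 CPM with DOX in the H188A line, so it was listed at 0 reads in all treated H188A libraries and the fitted interaction depends on the prior count. For 5 of the 6 genes the call was lost without the first untreated H188A library: Crh (adjusted p = 0.107), Tubb1 (0.176), Ankrd55 (0.0939), Iigp1 (0.0513) and Adamtsl2 (0.125). Hand2os1 kept its call there (0.0471), but not with the chemosensory sum as a covariate (-2.15, adjusted p = 0.0934) or without the third treated H188A library (-4.27, adjusted p = 0.0541). Hand2os1 was at 0.859, 0.349 and 1.31 CPM without and 2.95, 2.59 and 3.27 CPM with DOX in iETV2, against 2.03, 0.748 and 0.0435 CPM without and 0.0207, 0.2996 and 0.0161 CPM with DOX in the H188A line. Chemosensory receptors, which were high in the same library, had a median change of -2.82 in the H188A line and a median interaction of -2.52 over 241 tested genes, with 5 calls, all negative, or 22 without the third untreated H188A library and 3 without any 1 of 5 others. The median interaction was -1.32 without the first untreated H188A library, -1.61 without the third treated iETV2 library, -4.56 without the second treated H188A library and 0.92 with the chemosensory sum as a covariate.

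Genes could also respond in opposite directions. With DOX 44 genes rose in iETV2 and fell in the H188A line, and 70 fell in iETV2 and rose in the H188A line. Anterior genes of the HoxB cluster on chromosome 11 were among the former. Hoxb1 (chr11:96365746-96368254), a gene of the hindbrain and early posterior mesoderm, was at 28, 31.7 and 32.3 CPM in iETV2 without DOX and 85.5, 83.7 and 77.8 CPM in iETV2 with DOX. In the H188A line it was at 4.61, 5.27 and 5.34 CPM without DOX and 2.76, 1.66 and 1.5 CPM with DOX. The groups did not overlap, and H188A was below iETV2 in both states. It rose by 1.44 in iETV2 and fell by 1.34 on the log2 scale in the H188A line, an interaction of -2.78 ± 0.21 (SE, adjusted p = 3.01e-07). Hoxb3 (-3.02 ± 0.31 SE, adjusted p = 6.58e-06), Hoxb2 (-2.44 ± 0.29 SE, adjusted p = 2.17e-05) and the more posterior Hoxb8 (-5.13 ± 0.60 SE, adjusted p = 2.39e-05) also rose in iETV2 and fell in the H188A line, but at lower levels. Their means in the H188A line fell from 2.01 to 0.579 CPM for Hoxb3 and from 2.95 to 1.07 CPM for Hoxb2. For Hoxb8 the fall was from 0.79 to 0.112 CPM, below 1 CPM in both states.

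Isl1, a LIM homeobox factor of the second heart field, was at 5.65, 5.84 and 6.74 CPM without and 18, 18.7 and 18.1 CPM with DOX in iETV2, against 2.4, 1.51 and 1.7 CPM without and 0.663, 0.779 and 0.564 CPM with DOX in the H188A line, an interaction of -3.02 ± 0.22 (SE, adjusted p = 1.90e-07). Daam2, a formin of WNT signalling, was at 7.87, 6.25 and 7.82 CPM without and 25, 27.5 and 25.3 CPM with DOX in iETV2, against 4.34, 2.87 and 1.64 CPM without and 0.622, 1.26 and 0.886 CPM with DOX in the H188A line, an interaction of -3.42 ± 0.35 (SE, adjusted p = 6.00e-06). In both genes every treated H188A library was below every untreated one. Sox9, a SOX factor of many progenitors, was at 40.9, 44.5 and 41.9 CPM without and 20.4, 19.3 and 15.8 CPM with DOX in iETV2, against 3.5, 2.49 and 2.81 CPM without and 6.97, 5.19 and 5.27 CPM with DOX in the H188A line: it fell in iETV2 and rose in the H188A line, an interaction of 2.23 ± 0.21 (SE, adjusted p = 2.04e-06).

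Some rises passed no test for a difference, and the genes named here were chosen after their values were seen. In both lines 216 genes rose, of which 75 had a negative interaction, 9 a positive one and 132 no call. Kdr, the VEGF receptor FLK1 that marks the mesoderm giving rise to blood and vessels, was at 9.38, 7.19 and 7.19 CPM in iETV2 without DOX and 229, 238 and 233 CPM in iETV2 with DOX. For the H188A line the levels were 5.63, 2.57 and 1.58 CPM without DOX and 55.6, 55.6 and 56 CPM with DOX. It rose in every treated library of both lines, by 4.89 in iETV2 and 4.24 in the H188A line, and the interaction was -0.65 ± 0.34 (SE, adjusted p = 0.239). The level with DOX was nevertheless lower in the H188A line (-1.97 ± 0.21 SE, adjusted p = 1.74e-06), as it was without (-1.33 ± 0.26 SE, adjusted p = 7.18e-04).

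Fli1, an ETS factor downstream of ETV2, was at 0.876, 0.804 and 1.78 CPM without and 32.9, 31.2 and 33.5 CPM with DOX in iETV2, against 0.669, 0.487 and 0.0725 CPM without and 9.02, 10.1 and 9.94 CPM with DOX in the H188A line, with changes of 4.89 and 4.76 and an interaction of -0.13 ± 0.50 (SE, adjusted p = 0.896), whose sign changed in 6 of 19 alternatives. Treated H188A was below treated iETV2 in every library (-1.65 ± 0.23 SE, adjusted p = 2.75e-05). Gata2, a factor of early blood and endothelium, was at 0.722, 0.258 and 1.2 CPM without and 15.2, 16.9 and 17.5 CPM with DOX in iETV2, against 1.61, 0.557 and 0.377 CPM without and 5.49, 7.87 and 8.16 CPM with DOX in the H188A line, an interaction of -1.35 ± 0.57 (SE, adjusted p = 0.138). Without the third untreated H188A library Kdr (-0.98, adjusted p = 0.0129) and Gata2 (-1.72, adjusted p = 0.0299), and also Hapln1 (-2.29), passed the test for a negative interaction. Gata2 (-1.15, adjusted p = 0.00114) and Hapln1 (-1.47, adjusted p = 0.00466) also passed it without a filter on low counts. Hprt (chrX:52988078-53021660), an enzyme of purine salvage, was at 8.35, 7.32 and 7.35 CPM without and 120.5, 115 and 122 CPM with DOX in iETV2, against 3.22, 3.98 and 4.06 CPM without and 55.8, 47.9 and 47.7 CPM with DOX in the H188A line, an interaction of -0.18 ± 0.15 (SE, adjusted p = 0.455). It rose in both lines in every library. Hapln1, a hyaluronan link protein, reached 21.9, 23.5 and 21.7 CPM in treated iETV2 and 6.01, 3.77 and 3.09 CPM in treated H188A (-1.63 ± 0.82 SE, adjusted p = 0.219), and its sign changed without the first untreated H188A library. For none of these 5 genes does the missing call show that the lines responded alike.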

How the data were processed

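Counts per gene for 12 libraries, 3 per group, were used as the authors deposited them, 1 file per library. Per the submitters' processing notes, featureCounts 2.0.6, HTSeq 2.0.3 and the aligner STAR 2.7.10b were among the tools, with the builds mm10 and GRCm38. The sources used here do not say which of them counted the reads, or with what strand setting. Of 55487 genes, 25516 passed the edgeR low-count filter (filterByExpr by group). A quasi-likelihood model of 4 group means was fitted with edgeR 4.0.16 (R 4.3.3, limma 3.58.1) after TMM scaling, with Benjamini-Hochberg adjustment over all tested genes at 0.05. The interaction, the DOX effect in each line and the difference between lines in each state came from that fit. A level counted as lower or higher at an adjusted p under 0.05 and a log2 difference of at least 1. CPM are counts scaled to the library total, and an SE is the log2 value divided by the square root of F. Libraries held 40334911 to 68970038 counts. The fit was tested on simulated counts with known interactions and the same spread for every gene. That test covered neither the classes nor libraries as uneven as these.

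Named genes were Etv2, Kdm4a and the 4 markers, the 6 largest interactions in each class with at least 1 CPM in a group whose symbol is not a clone or pseudogene name, and up to 4 members per direction of each list by adjusted p. Other list members, such as Asns, Adm, Ldha, Dazl and Mixl1, were added with their values in view. So were the genes on opposite or like responses. The members and lists were chosen with earlier results of these data known. Alternatives were DESeq2 1.42.0, median-ratio scaling, other low-count filters, replicate blocks, a chemosensory covariate, a 1.5-fold class rule and leaving out each library. Positions and promoters are from RefSeq (GRCm38.p6), matched by symbol. ChIP-seq and knockout samples of the series were not used here. One gene that met the naming rule is not reported here.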

Additional observations from a re-analysis of the deposited data

Results flagged for a closer look

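The effect of DOX differed between the lines by the test of the interaction itself for 1581 genes in the negative and 2098 in the positive direction (edgeR quasi-likelihood test). Among the genes described first, the log2 interaction was 2.81 for Etv2, -2.44 for Tal1, -3.79 for Tek, -3.29 for Cdh5 and -7.32 for Hand1. Line and experiment cannot be told apart in any of these.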

How the results depend on the processing

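Of 159 named genes with a called interaction, 132 kept direction and call under all 19 alternatives. Many of them were named for a large interaction or a small adjusted p in these data, so that share does not describe all calls. Without a filter on low counts, 230 of the 292 unmet rises and 326 of the 467 raised starts kept their interaction call, as did 254 of the 266 missing falls and 419 of the 429 lowered starts. The 3679 interaction calls became 3424 with median-ratio scaling, 4105 with DESeq2, 3099 without and 4682 with a stricter low-count filter, and 3905 with the chemosensory sum as a covariate, and 2585 to 4112 when 1 library was left out. The positive share was 57.0%, and 50.2% with the covariate. Deviations from the group mean were compared between same-numbered libraries with and without DOX. Their correlations were 0.08, 0.32 and 0.60 in iETV2 and -0.25, 0.15 and 0.38 in the H188A line. Differently numbered libraries were not compared, so whether the numbers pair the samples was not settled. A replicate block within each line gave 4847 calls, and a block shared across lines 3262. The four-level classes held 1493 genes, or 1235 to 1540 when 1 library was left out: unmet rises 218 to 331, raised starts 382 to 489, missing falls 229 to 267 and lowered starts 357 to 494. Members changed more than these totals. At the lowest, 198 of 292 unmet rises and 308 of 467 raised starts stayed in their class, both without a filter on low counts. The lowest for missing falls was 178 of 266, at 1.5-fold. For lowered starts it was 348 of 429, without the first untreated iETV2 library. Lowered starts were 659 at 1.5-fold, a looser rule by construction. Signs changed for Kdm4a (-0.0102), the H3K9 demethylase median (-0.0102) and chemosensory median (0.92) with the covariate, and the VEGF and Notch median (0.0149) without a filter. The primitive streak, endoderm, fibroblast and H3K9 methylation medians, all near 0, also changed sign under some alternatives. Fli1 was at 0.0502 without a filter, 0.54 with the covariate and -0.71 to 0.34 when 1 library was left out, above 0 without 4 of them. Leaving out 1 library moved Hapln1 from -2.29 to 0.0612, above 0 without the first untreated H188A library, and Cd93 from -0.31 to 0.38, below 0 without the third untreated or the first treated H188A library. The cause was not tested. Genes with few reads limit the results: globins, Crh and chemosensory receptors rest on few counts in the H188A line.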
